A study of Homo sapiens with 8 samples.

Results

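The genes described here encode the machinery that carries cells from G1 into S phase and copies their DNA. They were the probe sets whose single gene symbol on the array platform was on a list of 52 genes, with the probe set of the highest mean over all 8 arrays standing for each gene, and all 52 of the 52 were found among 19775 genes. The cells were CCRF-CEM-C7-14, a glucocorticoid-sensitive clone of a line from human T-cell acute lymphoblastic leukaemia, and all groups had been moved to medium with charcoal-stripped serum. The groups were untreated cells at 0 h (3 arrays), cells after 2 h in 1 µM dexamethasone (3 arrays) and cells after 10 h in 1 µM dexamethasone (2 arrays). Dexamethasone is a synthetic glucocorticoid that activates the glucocorticoid receptor. No array of untreated cells at 2 h or 10 h was analysed here, so hormone and time in the stripped medium cannot be told apart, and the arrays are labelled as biological replicates without a statement of what was repeated, so p-values cover only the spread among these arrays, which may be technical.

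In G1, the origin recognition complex, CDC6 and CDT1 load the MCM2-7 helicase onto origins, a step called licensing. Cyclin E with its kinase drives the entry into S phase, and the E2F transcription factors, once released from the retinoblastoma protein, raise many genes of the replication machinery together. CDC45, the GINS complex and MCM10 then turn the loaded helicase into a moving fork, at which the polymerases, the clamp PCNA and its loader RFC copy the DNA. Glucocorticoids are known to arrest sensitive lymphoid leukaemia cells in G1 before they die.

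The values were log2 expression per probe set, and 1 unit is a 2-fold difference. Probe sets differ in brightness for reasons other than RNA amount, so each gene was compared with itself across arrays. The mean of each of the 52 genes exceeded 4.73, the highest value of 27 bacterial negative-control probe sets. Array medians were 4.68 to 4.77 on 0 h replicate 2, 2 h replicate 3 and 10 h replicate 1, called the low-median arrays below, and 4.91 to 5.01 on the other 5, so each time held 1 low-median array. Of the measured T-lineage markers 13 of 14 exceeded 4.73, CD2 being the exception, as did 6 of 7 B-cell, 3 of 8 myeloid, 3 of 6 natural killer, 2 of 4 erythroid and 5 of 9 epithelial and stromal markers, and none of them was called in any comparison. The summed level of each list overlapped between 10 h and 0 h except that of the epithelial and stromal list, at 48.1 and 48.2 at 10 h, against 48.5 to 48.9 at 0 h; its part in the results was not tested. TSC22D3, a long-known glucocorticoid-induced gene, had a log2 fold change of 4.30 ± 0.22 (SE) at 10 h against 0 h (limma adjusted p = 7.22e-09).

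No gene of the replication machinery passed the test at any time. In limma, with p-values adjusted by Benjamini-Hochberg over the 19775 genes and a threshold of 0.05, 0 of the 52 were called at 10 h against 0 h, where 0.354% of all genes were called. The count was also 0 at 2 h against 0 h (0.0202% of all genes), at 10 h against 2 h (0.167%) and in the moderated F test over the 3 times (0.283%). At an unadjusted p below 0.05, 1 of the 52 was lower at 10 h than at 0 h (1.29% of all genes), 4 were lower at 10 h than at 2 h (1.77% of all genes), and 0 were lower at 2 h than at 0 h (0.308%). None was higher at that threshold at 10 h against 0 h (2.15% of all genes), at 2 h against 0 h (0.637%) or at 10 h against 2 h (1.38%). The adjusted p of each of the 52 genes was 1.00 in all 3 comparisons, and the lowest over 19 alternative settings was 0.173.

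The intervals were narrow enough to bound the changes. At 10 h against 0 h the 95% intervals of all 52 genes, each at its chosen probe set, lay within −0.96 and 0.70. A change of 1 log2 unit, which is 2-fold, lay outside each of these intervals. Most genes shared this: of all 19775 genes, 19526 had an interval above −1 and 19396 an interval below 1. The bounds were therefore not particular to the 52, and each interval covers 1 gene and not the set. At 2 h against 0 h the intervals of the 52 lay within −0.60 and 0.83. At 10 h against 2 h the lowest bound was −1.01, for CDC45, and the highest 0.44. These bounds do not carry over to every other probe set of a gene. A dimmer MCM10 probe set had −0.74 ± 0.22 (SE) at 10 h against 0 h and −0.98 ± 0.22 (SE) against 2 h. In RNA from bulk cultures, fewer cells in S phase and less of these transcripts per cell cannot be told apart.

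**Figure D1:**
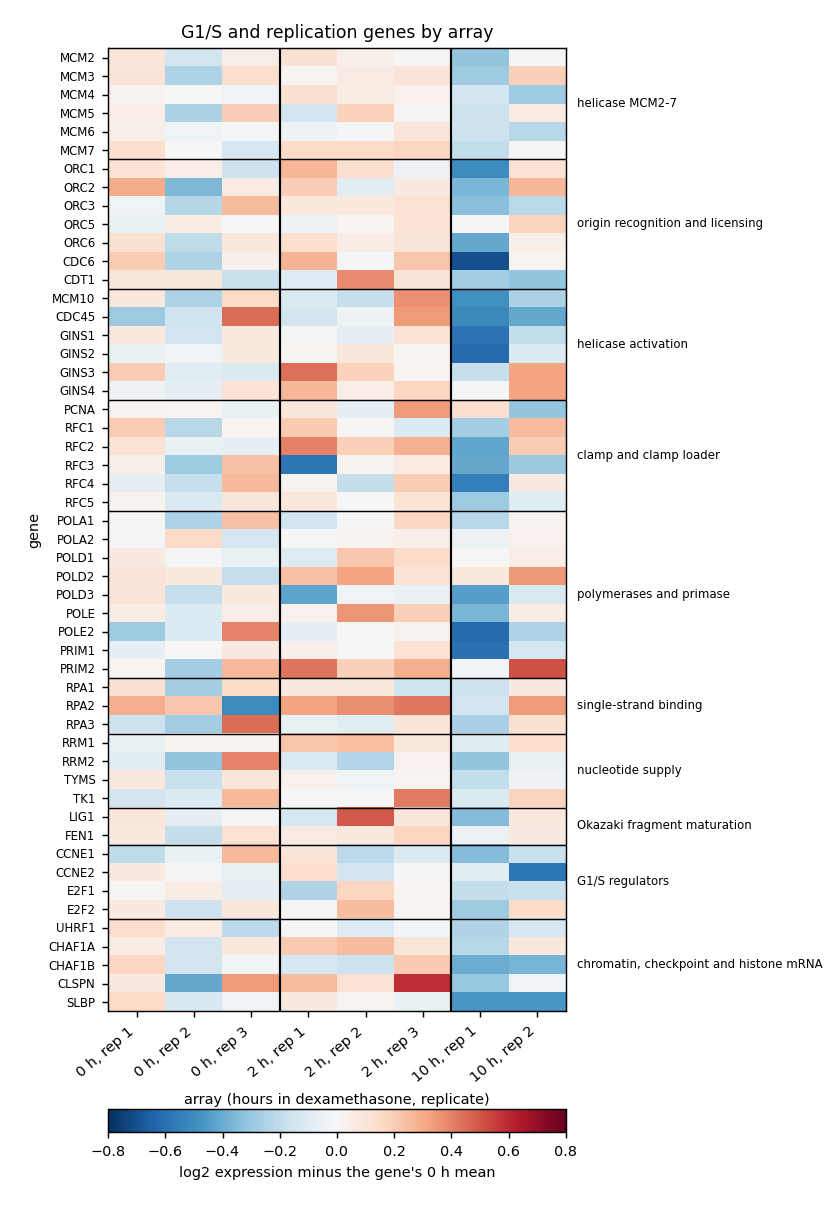
Log2 expression of each of the 52 genes minus its own 0 h mean, with a row per gene grouped by role and a column per array in order of hours in dexamethasone; blue is below and red above the 0 h mean. The column of 10 h replicate 1 is the bluest and holds the lowest value of 29 of the 52 genes, while that of 10 h replicate 2 is mixed and holds the lowest of 6.

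Most of the 52 genes had small negative differences at 10 h. Against 0 h, 42 of 52 were lower (80.8%, beside 55.4% of all genes), with a median log2 fold change of −0.16, beside −0.02 over all genes. Against 2 h, 51 of 52 were lower (98.1%, beside 57.5% of all genes), with a median of −0.21, beside −0.03. At 2 h against 0 h the balance was the other way, with 11 of 52 lower (21.2%, beside 44.3% of all genes) and a median of 0.06, beside 0.02. That balance did not hold in every setting. At 2 h, 28 of 52 were lower after quantile normalization (beside 51.8% of all genes) and 28 without the 3 low-median arrays (beside 49.3%). Without 0 h replicate 2, 25 of 52 were lower beside 63.4% of all genes, with a median of 0.003, beside −0.06. The comparisons share arrays, so they are not independent of each other.

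The size of the difference at 10 h rested mostly on 1 array, 10 h replicate 1. The mean over the 52 genes was 9.42, 9.27 and 9.45 at 0 h, 9.43, 9.44 and 9.50 at 2 h, and 9.10 and 9.36 at 10 h. The value of 10 h replicate 1 was the lowest of the 8, and that of 10 h replicate 2 lay inside the range of the 0 h arrays. The low end of that range was 0 h replicate 2, a low-median array. Among the arrays outside the low-median set, 10 h replicate 2 was the lowest at 9.36, the others having 9.42 to 9.45. Its mean over all genes stood 0.063 above the 0 h mean, and theirs 0.064 to 0.095 above it. Without 10 h replicate 1, 24 of 52 genes were lower than at 0 h (beside 40.8% of all genes), with a median of 0.03, beside 0.05. Without 10 h replicate 2, 50 of 52 were lower (beside 66.7% of all genes), with a median of −0.28, beside −0.09. Against 2 h the count without 10 h replicate 1 was 34 of 52 (beside 42% of all genes), with a median of −0.06, beside 0.04. The count against 2 h without 10 h replicate 2 was 51 of 52 (beside 67.6% of all genes), with a median of −0.35, beside −0.10. 10 h replicate 1 is a low-median array, so the comparison was also made within each set of arrays. Within the low-median arrays, 40 of 52 genes were lower at 10 h than at 0 h (median −0.14, beside 0.06 over all genes), and within the other 5 arrays 32 of 52 were (median −0.07, beside −0.03). Of all 19775 genes, 7859 and 10752 were lower in these 2 sets. At 10 h against 2 h the counts of the 52 were 52 (median −0.38, beside 0.04) and 35 (median −0.09, beside −0.03). Those of all 19775 genes were 8783 and 11020.

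**Figure D2:**
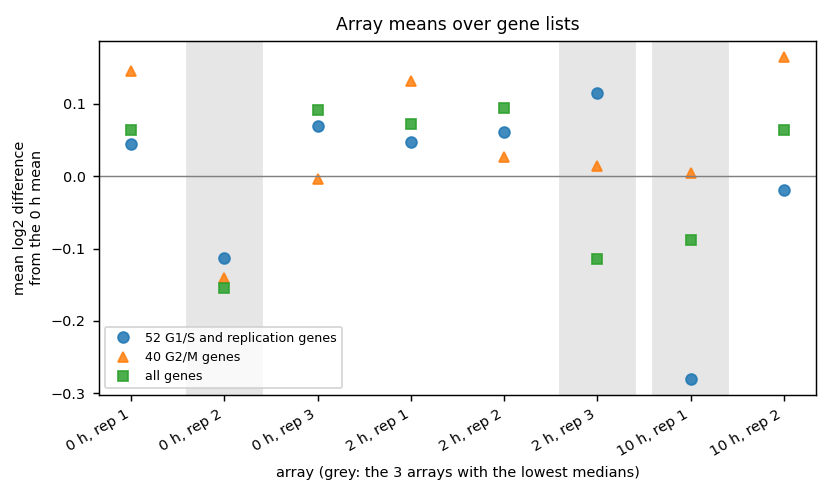
Mean difference in log2 expression from the 0 h mean, on the vertical axis, for each array along the horizontal axis, over the 52 replication genes (circles), 40 G2/M genes (triangles) and all 19775 genes (squares); grey bands mark the 3 low-median arrays. On 10 h replicate 1 the replication genes stand at −0.28, the G2/M genes at 0.00 and all genes at −0.09, and on 2 h replicate 3, also a low-median array, the replication genes stand at 0.12.

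Some genes were lower on both 10 h arrays. The 2 arrays at 10 h lay below all 3 arrays at 0 h for 13 of the 52 genes (25%), an arrangement that 6.51% of all genes showed: MCM4, MCM6, CDT1, MCM10, CDC45, GINS1, GINS2, RFC3, PRIM1, CCNE2, E2F1, CHAF1B and SLBP. Without 10 h replicate 1, which leaves 1 array at 10 h, the count was 14 (26.9%), beside 13.1% of all genes. Without 0 h replicate 2 the count was 23 (44.2%), beside 27.2% of all genes, and without the 3 low-median arrays 24 (46.2%), beside 35.8%. None of the 52 had both 10 h arrays above all 0 h arrays, which 6.56% of all genes showed. Against 2 h, 20 of the 52 genes had both 10 h arrays below all 2 h arrays (38.5%, beside 9.29% of all genes), and 0 had both above (5.43% of all genes). Without 10 h replicate 1 the lower count was 22 (42.3%), beside 15.5% of all genes. Without 2 h replicate 3 the lower count was 23 (44.2%), beside 29.8% of all genes, and without the 3 low-median arrays 25 (48.1%), beside 39.2%. At 2 h against 0 h, 0 genes had all 2 h arrays below all 0 h arrays (1.10% of all genes), and 7 had them all above (13.5%, beside 2.94%): MCM4, MCM7, RFC2, POLD2, RPA2, RRM1 and CHAF1A. Without 2 h replicate 3, the count of 8 of 52 genes (15.4%) stood beside 14.7% of all genes, and without the 3 low-median arrays 9 (17.3%) stood beside 16.8%.

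Licensing begins with the origin recognition complex, of which 5 subunits were measured. ORC1, its large ATPase subunit, had 8.53, 8.47 and 8.25 at 0 h, 8.68, 8.55 and 8.37 at 2 h, and 7.92 and 8.53 at 10 h. The 2 arrays at 10 h were far apart, replicate 1 below all others and replicate 2 level with the highest 0 h array. ORC2, ORC3, ORC5 and ORC6 had log2 fold changes of −0.05, −0.28, 0.08 and −0.18 at 10 h against 0 h, and ORC5 was the single gene of the 52 with a positive difference at 10 h against 2 h, of 0.05. CDC6, the ATPase that recruits the helicase to ORC, had 8.95, 8.50 and 8.79 at 0 h, 9.02, 8.73 and 8.97 at 2 h, and 8.04 and 8.77 at 10 h, with 10 h replicate 1 again lowest and replicate 2 within the ranges of both earlier times. Its log2 fold change was −0.34 ± 0.23 (SE) against 0 h and −0.50 ± 0.23 (SE) against 2 h, that value being −0.93 within the low-median arrays and −0.11 within the others. Its second probe set had −0.17 against 0 h. CDT1, the partner of CDC6 in loading, had 9.16, 9.16 and 8.89 at 0 h, 8.97, 9.45 and 9.18 at 2 h, and 8.79 and 8.76 at 10 h. Both 10 h arrays of CDT1 were below every earlier array, with −0.29 ± 0.20 (SE) against 0 h and −0.26 on its second probe set.

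The 6 subunits of the MCM2-7 helicase, which unwinds DNA ahead of the fork, were all slightly lower at 10 h than at 0 h and than at 2 h, and none passed. MCM2 had 11.52, 11.27 and 11.47 at 0 h, 11.54, 11.46 and 11.43 at 2 h, and 11.10 and 11.41 at 10 h. MCM3 had 11.12, 10.77 and 11.16 at 0 h, 11.04, 11.08 and 11.12 at 2 h, and 10.74 and 11.21 at 10 h. In both, replicate 1 at 10 h was the lowest array, while replicate 2 sat among the 0 h arrays for MCM2 and above them for MCM3. MCM4 had 10.14, 10.11 and 10.08 at 0 h, 10.24, 10.17 and 10.15 at 2 h, and 9.96 and 9.83 at 10 h, and MCM6 had 11.63, 11.55 and 11.58 at 0 h, 11.55, 11.57 and 11.68 at 2 h, and 11.43 and 11.36 at 10 h. For these 2 subunits the groups did not overlap, both 10 h arrays being the lowest of the 8, at −0.22 ± 0.18 (SE) for MCM4 and −0.19 ± 0.18 (SE) for MCM6 against 0 h. All 5 MCM4 probe sets and both MCM6 probe sets had negative values against 0 h, from −0.34 to −0.15 and from −0.19 to −0.17. MCM5 had 11.14, 10.84 and 11.29 at 0 h, 10.94, 11.27 and 11.10 at 2 h, and 10.92 and 11.15 at 10 h, groups that overlapped throughout. MCM7 had 11.06, 10.93 and 10.79 at 0 h, 11.08, 11.08 and 11.10 at 2 h, and 10.73 and 10.94 at 10 h, and its 2 h arrays were all above its 0 h arrays. MCM5 had −0.05 ± 0.20 (SE) and MCM7 −0.09 ± 0.19 (SE) at 10 h against 0 h. The second probe set of MCM5 had 0.17, so its direction was not shared by its probe sets, while that of MCM7 had −0.26.

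The factors that activate the loaded helicase held several of the lowest values. CDC45, which joins MCM2-7 in the active helicase, had 7.71, 7.84 and 8.45 at 0 h, 7.85, 7.96 and 8.34 at 2 h, and 7.48 and 7.59 at 10 h. Its 0 h arrays were spread over more than their distance to 10 h, yet both 10 h arrays were below every other array, at −0.46 ± 0.23 (SE) with a 95% interval of −0.96 to 0.03. GINS1 and GINS2 are subunits of the 4-part GINS complex. GINS1 had 10.45, 10.22 and 10.45 at 0 h, 10.38, 10.29 and 10.48 at 2 h, and 9.78 and 10.18 at 10 h, and GINS2 had 10.26, 10.29 and 10.39 at 0 h, 10.33, 10.40 and 10.33 at 2 h, and 9.69 and 10.20 at 10 h. Both had their 10 h arrays below all others, replicate 1 by more than replicate 2, with −0.39 ± 0.20 (SE) and −0.36 ± 0.20 (SE) against 0 h. The other probe sets of GINS2 had −0.48 and 0.02. GINS3 and GINS4, the other subunits, had 0.07 and 0.15 against 0 h, and −0.15 and −0.01 against 2 h. MCM10, a scaffold at the starting fork, had 8.91, 8.57 and 8.98 at 0 h, 8.70, 8.63 and 9.19 at 2 h, and 8.33 and 8.56 at 10 h, with both 10 h arrays the lowest of the 8. Against 0 h its value was −0.37 ± 0.22 (SE), and its other probe sets had −0.44 and −0.74. The −0.74 was the lowest value of the 94 probe sets of these genes that exceeded the negative controls (adjusted p = 0.578 in limma over 54613 probe sets). Against 2 h that probe set had −0.98 (adjusted p = 0.213).

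Probe sets gave a broader view than 1 per gene. The 52 genes had 101 probe sets, 94 of them above the negative controls. Of these 94, 73 were lower at 10 h than at 0 h, with a median of −0.16 and a range of −0.74 to 0.26, where 52.5% of all probe sets above the negative controls were lower. At 10 h against 2 h 87 of the 94 were lower, beside 59.1%, and at 2 h against 0 h 23 of the 94 were, beside 38.1%. None of the 101 was called in any of the 3 comparisons. Probe sets of a gene share RNA and arrays, so they are no further replicates.

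**Figure D3:**
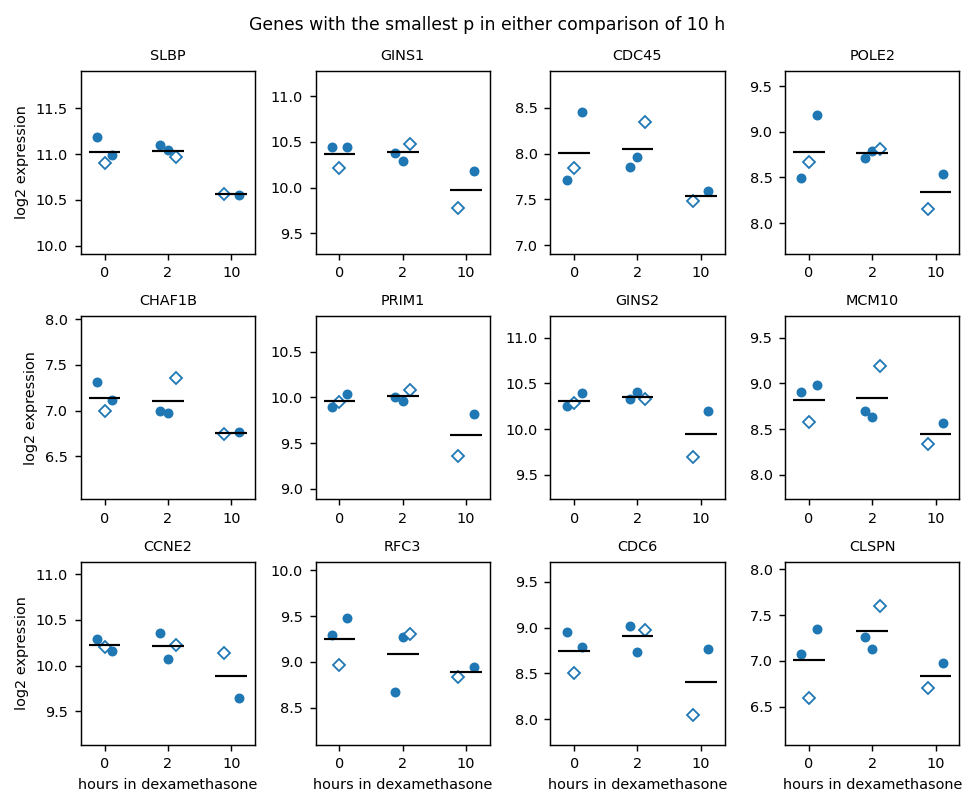
Log2 expression of 12 genes on each array, on a vertical axis of equal span in every panel, at 0, 2 and 10 h of dexamethasone; circles are the 5 arrays with the higher medians, open diamonds the 3 low-median arrays, and bars the mean per time. SLBP and CHAF1B have nearly equal values on the 2 arrays at 10 h, CDC6, PRIM1 and GINS2 lie lower on the low-median array, and CCNE2 lies lower on the other.

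At the fork, PCNA, the sliding clamp that tethers polymerases, had 11.36, 11.36 and 11.28 at 0 h, 11.42, 11.26 and 11.68 at 2 h, and 11.47 and 11.02 at 10 h. Its arrays went the other way from most of these genes: 10 h replicate 1 was above all 0 h arrays and replicate 2 was below them, for −0.09 ± 0.20 (SE) against 0 h. The RFC complex loads PCNA onto DNA. RFC2 had 9.38, 9.22 and 9.20 at 0 h, 9.67, 9.46 and 9.55 at 2 h, and 8.85 and 9.47 at 10 h, so that all its 2 h arrays were above all its 0 h arrays, at 0.29 ± 0.19 (SE), and its second probe set had 0.22. RFC3 had 9.29, 8.96 and 9.48 at 0 h, 8.67, 9.27 and 9.31 at 2 h, and 8.84 and 8.95 at 10 h. Its 10 h arrays were below its 0 h arrays but not below 2 h replicate 1, and its 3 probe sets had −0.35, −0.36 and −0.42 at 10 h against 0 h. RFC1, RFC4 and RFC5 had −0.01, −0.24 and −0.19.

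The polymerases and primase divided by subunit. POLA1, the catalytic subunit of polymerase alpha, had 8.47, 8.21 and 8.69 at 0 h, 8.31, 8.45 and 8.63 at 2 h, and 8.24 and 8.49 at 10 h, with full overlap between the times. POLE2, the second subunit of the leading-strand polymerase epsilon, had 8.49, 8.67 and 9.18 at 0 h, 8.71, 8.79 and 8.81 at 2 h, and 8.16 and 8.53 at 10 h. At −0.43 ± 0.22 (SE) against 0 h it was among the lowest of the 52, although 10 h replicate 2 exceeded 0 h replicate 1. PRIM1, the catalytic primase subunit that starts each fragment with RNA, had 9.89, 9.96 and 10.04 at 0 h, 10.004, 9.96 and 10.08 at 2 h, and 9.36 and 9.82 at 10 h. The 0 h and 2 h arrays of PRIM1 lay close together and both 10 h arrays lay below them, at −0.37 ± 0.20 (SE) against 0 h and −0.42 ± 0.20 (SE) against 2 h. PRIM2, the regulatory primase subunit, had 7.36, 7.07 and 7.60 at 0 h, 7.77, 7.53 and 7.63 at 2 h, and 7.32 and 7.85 at 10 h, and so had a value of 0.24 ± 0.22 (SE) with 10 h and 0 h arrays overlapping. POLD2, an accessory subunit of the lagging-strand polymerase delta, had 9.43, 9.41 and 9.15 at 0 h, 9.56, 9.64 and 9.44 at 2 h, and 9.41 and 9.68 at 10 h, its 2 h arrays all above its 0 h arrays at 0.22 ± 0.17 (SE). The catalytic subunits POLE and POLD1 had −0.15 and 0.02 at 10 h against 0 h, POLA2 had −0.01 and POLD3 −0.28.

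Among the 3 subunits of RPA, which coats single-stranded DNA, RPA2 had 9.04, 8.96 and 8.23 at 0 h, 9.06, 9.12 and 9.17 at 2 h, and 8.59 and 9.09 at 10 h. The value of 0 h replicate 3 stood well below the rest, and the log2 fold change at 2 h of 0.37 ± 0.22 (SE), the largest of the 52 at that time, was 0.11 without that array. RPA1 and RPA3 had −0.05 and −0.07 at 10 h against 0 h. For the enzymes that join and trim lagging-strand fragments, LIG1 had −0.13 and FEN1 0.01.

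The enzymes of deoxynucleotide supply stayed within 0.2 log2 units of 0 h on average. RRM1, the large subunit of ribonucleotide reductase, had 11.16, 11.25 and 11.25 at 0 h, 11.44, 11.46 and 11.30 at 2 h, and 11.12 and 11.35 at 10 h, with all 2 h arrays above all 0 h arrays and the 10 h arrays on both sides. RRM2, its S-phase subunit, had 11.93, 11.69 and 12.41 at 0 h, 11.89, 11.78 and 12.04 at 2 h, and 11.70 and 11.95 at 10 h. The 0 h arrays of RRM2 spanned the values of both later times, and its second probe set had −0.39 against 0 h where the brightest had −0.18. TYMS, which makes thymidylate, had 12.48, 12.22 and 12.49 at 0 h, 12.43, 12.37 and 12.42 at 2 h, and 12.20 and 12.36 at 10 h, and TK1, which salvages thymidine, had 8.49, 8.53 and 8.90 at 0 h, 8.64, 8.64 and 9.06 at 2 h, and 8.52 and 8.82 at 10 h. The 10 h and 0 h arrays of both overlapped, with −0.12 ± 0.19 (SE) for TYMS and 0.03 ± 0.21 (SE) for TK1, while both 10 h arrays of TYMS lay below all its 2 h arrays.

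Among the regulators of the transition, CCNE1, cyclin E1, had 6.97, 7.12 and 7.43 at 0 h, 7.28, 6.97 and 7.06 at 2 h, and 6.83 and 6.9997 at 10 h, with 10 h arrays at the low end of overlapping groups. CCNE2, cyclin E2, had 10.30, 10.21 and 10.16 at 0 h, 10.35, 10.07 and 10.23 at 2 h, and 10.14 and 9.64 at 10 h. Its difference of −0.33 ± 0.20 (SE) rested on replicate 2 at 10 h: it was −0.07 within the low-median arrays and −0.59 within the others. E2F1 had 7.84, 7.89 and 7.76 at 0 h, 7.59, 8.001 and 7.85 at 2 h, and 7.64 and 7.65 at 10 h, so that both 10 h arrays were just below the lowest 0 h array but above 2 h replicate 1. E2F2 had 9.95, 9.72 and 9.97 at 0 h, 9.87, 10.13 and 9.90 at 2 h, and 9.60 and 10.03 at 10 h, and 10 h replicate 2 was its second highest array. Both are activating E2F factors, and their log2 fold changes were −0.18 ± 0.19 (SE) and −0.07 ± 0.20 (SE).

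SLBP, which binds the stem-loop of replication-dependent histone mRNAs and whose protein is known to accumulate in S phase, had the smallest p of the 52 at 10 h against both earlier times. It had 11.19, 10.90 and 10.99 at 0 h, 11.10, 11.05 and 10.97 at 2 h, and 10.56 and 10.56 at 10 h. The 0 h and 2 h arrays of SLBP overlapped and both 10 h arrays lay well below them. Its log2 fold change was −0.46 ± 0.19 (SE), a fold of 0.725 with a 95% interval of −0.86 to −0.07 on the log2 scale, against 0 h (limma adjusted p = 1.00). Within the low-median arrays it was −0.34 and within the others −0.53, and over the 19 alternatives it stayed between −0.58 and −0.38. CHAF1B, a subunit of the chromatin assembly factor that deposits histones behind the fork, had 7.31, 6.99 and 7.12 at 0 h, 6.999, 6.98 and 7.35 at 2 h, and 6.74 and 6.77 at 10 h. Both 10 h arrays were below all others, with −0.38 ± 0.20 (SE) against 0 h, while CHAF1A, its partner, had −0.07. CLSPN, a checkpoint mediator at the fork, had 7.08, 6.60 and 7.35 at 0 h, 7.26, 7.13 and 7.60 at 2 h, and 6.71 and 6.97 at 10 h. It was low on 0 h replicate 2 as well as at 10 h, so that its value was −0.17 ± 0.23 (SE) against 0 h and −0.49 ± 0.23 (SE) against 2 h. UHRF1, which guides maintenance DNA methylation, had 11.72, 11.65 and 11.37 at 0 h, 11.57, 11.48 and 11.56 at 2 h, and 11.34 and 11.44 at 10 h, with 0 h replicate 3 between its 10 h arrays.

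**Figure D4:**
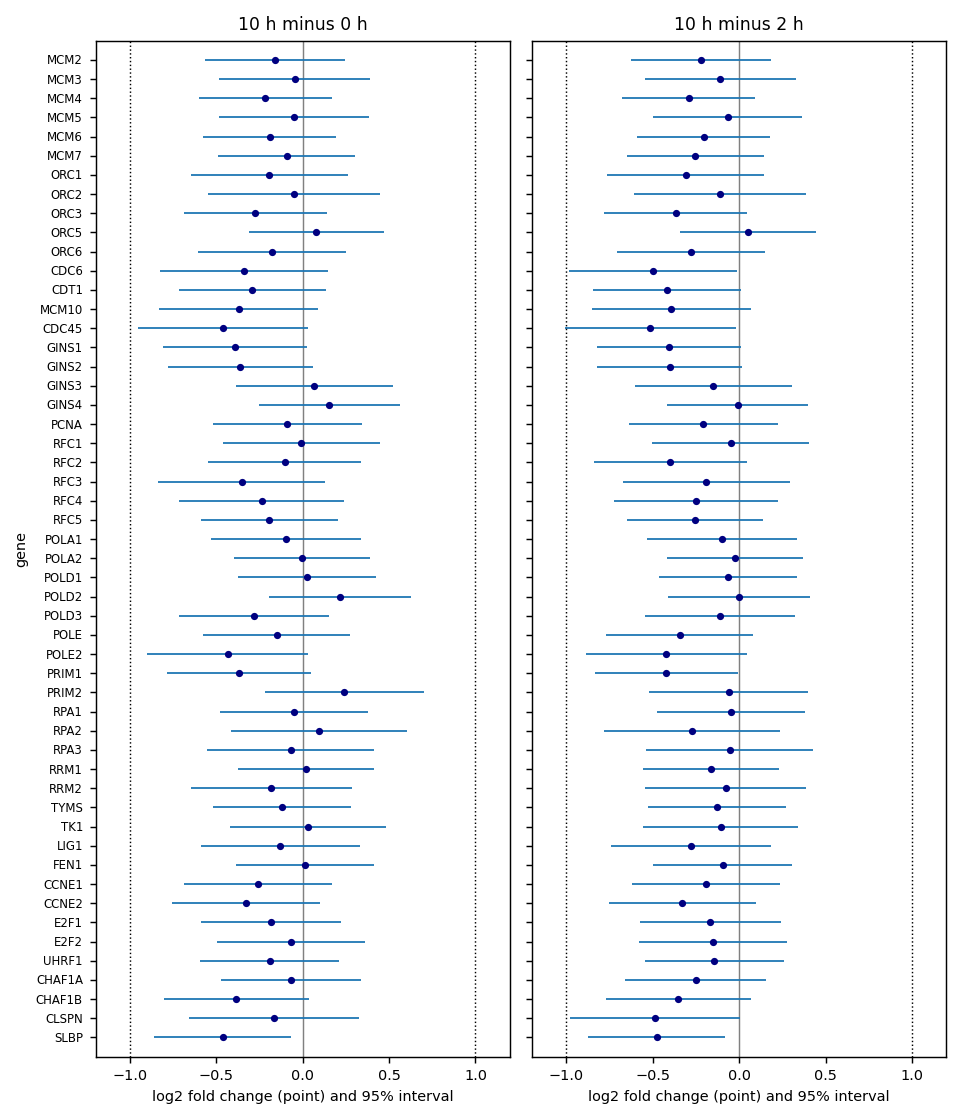
Log2 fold change of each of the 52 genes with its 95% interval at 10 h minus 0 h (left panel) and 10 h minus 2 h (right panel), a row per gene; dotted lines mark 1 log2 unit either way. The points lie between −0.46 and 0.24 in the left panel and between −0.51 and 0.05 in the right one, and all intervals but those of SLBP (left) and of SLBP, CDC45, CDC6 and PRIM1 (right) include 0.

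Within sets of arrays, the genes differed in how far their values at 10 h depended on the array. At 10 h against 2 h, SLBP had −0.41 within the low-median arrays and −0.51 within the others, CDT1 had −0.38 and −0.44, and MCM4 −0.19 and −0.38, so these 3 were lower in both sets. CDC6 had −0.93 and −0.11, CLSPN −0.89 and −0.22, and CDC45 −0.86 and −0.31, so these were also lower in both sets, by more in the low-median pair. Against 0 h CDC45 had −0.36 and −0.49, with the larger difference in the other arrays. RFC4 and TK1 were among the genes with opposite signs, at −0.75 and 0.15 for RFC4 and −0.53 and 0.18 for TK1. The low-median set has 1 array at each time, and the other set has 1 at 10 h, so these values have no replicate check at 10 h.

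**Figure D5:**
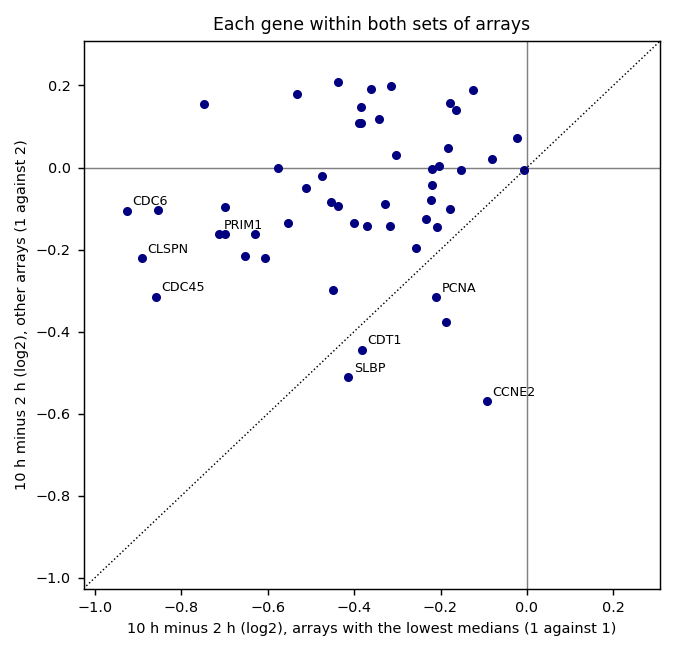
Log2 difference of each of the 52 genes at 10 h minus 2 h within the low-median arrays (horizontal axis, 1 array against 1) and within the other arrays (vertical axis, 1 against 2); the dotted line marks equal values. All 52 points lie left of 0 and 35 lie below 0, and SLBP, CDT1, MCM4, PCNA and CCNE2 are among those below the dotted line.

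Shared control by E2F factors is the textbook property of this group, so the promoters were read for the E2F consensus. RefSeq promoter sequences of GRCh38.p14, from 250 bases before to 50 after the gene start, were held for 45 of the 52 genes, those without being MCM4, MCM5, GINS4, POLD3, RPA2, RPA3 and CCNE2. The letters searched were TTTCCCGC, TTTCGCGC, TTTGCCGC and TTTGGCGC on both strands. Of the 45 promoters 22 held at least 1 (48.9%), beside 3 of 32 promoters of G2/M genes (9.38%) and 3.33% of all 27305 RefSeq promoters. These 27305 were not limited to the genes measured on the arrays. The CCAAT box, CCAAT on either strand, was in 26 of 45 (57.8%, beside 75.0% of G2/M promoters and 35.7% of all), and CACGTG, the E-box bound by MYC, in 5 (11.1%, beside 15.6% of G2/M promoters and 7.43% of all). TTTGAA on either strand, the core of the CHR element of mitotic genes, was in 1 of 45 (2.22%), beside 22 of 32 G2/M promoters (68.8%) and 15.4% of all. E2F matches on opposite strands can overlap, as they do in MCM2 and MCM6, and a promoter was counted once whatever its number of matches. The median GC content was 66% in the promoters of these genes, 60.8% in those of G2/M genes and 58.3% in all. A match is a description of letters and not of binding. The 22 genes with an E2F match had a median log2 fold change of −0.17 at 10 h against 0 h and the 23 without one −0.10, and at 10 h against 2 h the medians were −0.21 and −0.19.

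4 of these promoters are shown because their genes lie at different points of the pathway and 3 of them, GINS1, MCM6 and E2F1, had both 10 h arrays below all 0 h arrays, while CDC6 had the lowest value of the licensing factors at 10 h against 0 h. Each is written 5′ to 3′ on the strand of its gene, with E2F matches in capitals. GINS1 is at chr20:25407423-25407722 on the plus strand, CDC6 at chr17:40287629-40287928 on the plus strand, MCM6 at chr2:135876394-135876693 on the minus strand and E2F1 at chr20:33686336-33686635 on the minus strand.
GINS1: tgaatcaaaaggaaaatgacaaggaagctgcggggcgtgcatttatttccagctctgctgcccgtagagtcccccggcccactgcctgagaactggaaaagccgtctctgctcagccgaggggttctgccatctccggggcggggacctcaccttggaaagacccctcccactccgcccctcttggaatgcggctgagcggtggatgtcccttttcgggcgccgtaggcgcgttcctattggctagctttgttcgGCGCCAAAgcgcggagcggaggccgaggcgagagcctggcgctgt
CDC6: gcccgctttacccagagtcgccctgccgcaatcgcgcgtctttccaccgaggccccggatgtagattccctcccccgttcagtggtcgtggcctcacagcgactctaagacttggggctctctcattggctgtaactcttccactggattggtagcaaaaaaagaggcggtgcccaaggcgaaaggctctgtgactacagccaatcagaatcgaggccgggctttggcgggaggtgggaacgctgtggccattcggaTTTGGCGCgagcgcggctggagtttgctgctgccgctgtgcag
MCM6: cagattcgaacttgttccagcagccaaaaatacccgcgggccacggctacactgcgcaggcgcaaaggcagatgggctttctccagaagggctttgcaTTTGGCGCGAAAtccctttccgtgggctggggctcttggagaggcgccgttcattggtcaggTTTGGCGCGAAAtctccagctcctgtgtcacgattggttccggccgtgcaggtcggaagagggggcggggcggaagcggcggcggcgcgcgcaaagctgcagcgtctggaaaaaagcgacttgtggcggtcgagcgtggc
E2F1: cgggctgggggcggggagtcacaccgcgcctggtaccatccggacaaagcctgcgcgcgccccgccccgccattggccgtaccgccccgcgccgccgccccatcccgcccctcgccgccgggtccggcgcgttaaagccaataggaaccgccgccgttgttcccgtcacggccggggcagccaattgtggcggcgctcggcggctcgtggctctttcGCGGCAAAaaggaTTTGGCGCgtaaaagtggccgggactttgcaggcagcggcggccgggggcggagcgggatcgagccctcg
In GINS1 and CDC6 the match begins 6 and 8 bases into the gene. MCM6 holds 2 runs of overlapping matches upstream of its start, and E2F1 holds 2 separate matches. Of the 10 genes with the smallest p at 10 h against 0 h, SLBP, CDC45, CHAF1B, PRIM1 and MCM10 had no match to the searched letters in this window. POLE2, GINS1, GINS2 and RFC3 had 1 match each, and CCNE2 had no promoter sequence here. Other spellings of an E2F site were not searched, so a gene without a match may hold one.

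Other genes of the pathway were taken from lists beyond the 52. Of 84 measured genes outside G2/M, 61 were lower at 10 h than at 0 h (72.6%, beside 55.4% of all genes), with a median of −0.12. Of the 84, 1 was called, where 0.354% of all genes were. That gene was MYC, the growth-promoting transcription factor, with 11.41, 11.18 and 11.16 at 0 h, 11.28, 11.22 and 10.90 at 2 h, and 10.14 and 10.35 at 10 h. Both 10 h arrays of MYC were below all earlier ones, at −1.01 ± 0.20 (SE) against 0 h (limma adjusted p = 0.0300). Its log2 fold change stayed between −1.12 and −0.90 in 19 alternatives, with adjusted p from 0.000146 to 0.575 in limma. It no longer passed when 10 h replicate 1 was left out (adjusted p = 0.575), nor when 10 h replicate 2 was (adjusted p = 0.213). The adjusted p was 0.189 on leaving out 0 h replicate 1, 0.0527 on leaving out 0 h replicate 2, 0.0547 on leaving out 2 h replicate 2, and 0.349 without the 3 low-median arrays. CDC25A, the phosphatase that activates the cyclin E kinase, had −0.56 and, within its list of 26 G1/S control genes, 17 were lower (65.4%). Among 13 other licensing and activation genes 11 were lower (84.6%); MCMBP, an MCM-binding protein, had −0.42 and DBF4B, a regulator of the CDC7 kinase, 0.32. Among 16 other fork genes 9 were lower (56.2%, close to the share of all genes), with TIPIN, of the fork protection complex, at −0.50 and DSCC1, of an alternative clamp loader, at −0.48. Of 10 other nucleotide supply genes 8 were lower (80%), with CTPS1, which makes CTP, at −0.44 and DCTPP1, which clears modified dCTP, at −0.39. Of 19 chromatin and checkpoint genes 16 were lower (84.2%), with HELLS, a chromatin remodeller, at −0.35 and DTL, which marks CDT1 for destruction, at −0.25. Apart from MYC, each named gene in these lists had an adjusted p of 1.00.

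Most of the G2/M genes had small positive differences at 10 h against 0 h. Of 40 genes of mitosis and its entry, 13 were lower at 10 h than at 0 h (32.5%, beside 55.4% of all genes), with a median of 0.10. At 10 h against 2 h, 18 were lower (45%, beside 57.5% of all genes), with a median of 0.02. None of the 40 was called in either comparison, where 0.354% and 0.167% of all genes were. The 2 with the smallest p were CKS2, a kinase subunit, at 0.51, and DLGAP5, a spindle protein, at 0.60. On 10 h replicate 1, the array on which the replication genes averaged −0.28 against 0 h, the G2/M genes averaged 0.00. On 10 h replicate 2 the G2/M genes averaged 0.165. Their averages on the 0 h arrays were 0.145, −0.141 and −0.004, so the 2 times overlapped. The difference between these 2 lists was not tested.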

How the data were processed

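RNA from the CCRF-CEM-C7-14 cultures was measured on 8 single-colour oligonucleotide arrays, each with 54675 probe sets. The authors deposited log2 values, 1 per probe set and array, which per the submitters' processing notes came from RMA. Their medians differ between arrays, and joint processing of all 8 is not stated in the sources used here.

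Gene names came from the array platform's annotation: 41097 had 1 gene symbol, 1801 several, 11721 none and 62 were controls, 6 of which also had 1 symbol and stayed among the candidates for their genes, none of the 52. The probe set with the highest mean over all arrays stood for each gene, leaving 19775 genes, with no filter on dim values. All 8 arrays entered 1 fit in limma 3.58.1 under R 4.3.3 (lmFit on 3 group means, then contrasts.fit and eBayes, with 5 residual degrees of freedom), with two-sided p-values adjusted over all genes by Benjamini-Hochberg and called below 0.05. The fit was tested on simulated data. A second fit covered 54613 probe sets. Precision is limited by the number of arrays, 2 to 3 per time.

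The 52 genes and the other lists were chosen with earlier results of these data known. Genes given with values per array were the 10 with the smallest p at 10 h against 0 h, the 5 with the smallest p in each other comparison and a fixed panel. Outside the 52, the 2 genes with the smallest p were named per list. Whether the replicate numbers pair the arrays was not settled: correlations of same-numbered deviations from the time means ran from −0.268 to 0.264. The deviations of the 2 arrays at 10 h mirror each other by construction, so these correlations cannot exclude pairing.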

Additional observations from a re-analysis of the deposited data

How the results depend on the processing

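None of the 52 genes was called in any of the 19 alternatives for each comparison (18 for the F test), which changed the probe set rule, scaling, variance model, filter, blocks and arrays. The alternatives for counts of lower and of non-overlapping genes were chosen after seeing the data. At 10 h against 0 h the median ran from −0.28 to 0.025 and the count of lower genes from 24 to 50 over arrays left out in turn, and at 10 h against 2 h the median ran from −0.35 to −0.065. Without the 3 low-median arrays that second median was −0.087. Over arrays left out in turn, the share of all genes lower at 10 h against 0 h ran from 40.8% to 69.1%. At 2 h against 0 h the count of lower genes, 11 as reported, was 6 with arrays centred on their medians, 28 with quantile normalization, 19 with array weights, 28 without the 3 low-median arrays and 8 to 25 over arrays left out. The shares of all genes lower in these settings were, in the same order, 39.9%, 51.8%, 46.5%, 49.3% and 29.8% to 63.4%. The count of non-overlapping lower genes at 10 h against 0 h, 13 as reported, was 24 without the 3 low-median arrays, where the share of all genes was 35.8%, and 23 without 0 h replicate 2, where it was 27.2%. Without 10 h replicate 1 that count was 14, where the share of all genes was 13.1%. With a replicate block, 42 genes were lower at 10 h against 0 h (median −0.12), 11 at 2 h against 0 h and 45 at 10 h against 2 h, and it called none of the 52.

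Single genes changed sign at 10 h against 0 h as follows. With the mean of all probe sets MCM5 had 0.058, E2F2 0.070, RRM1 −0.027 and TYMS 0.015. With probe sets without a suffix preferred MCM5 had 0.17, GINS2 0.019 and TK1 −0.0051. Without the 3 low-median arrays MCM3 had 0.065, MCM7 0.012, ORC1 0.14 and E2F2 0.065, and CLSPN had −0.020 at 2 h against 0 h. With the replicate block POLA1 had 0.0036. Leaving out arrays in turn, MCM3 ran from −0.28 to 0.19, MCM5 from −0.18 to 0.066, MCM7 from −0.20 to 0.011, PCNA from −0.31 to 0.13, CDC6 from −0.71 to 0.021, ORC1 from −0.50 to 0.11, E2F2 from −0.28 to 0.15, RRM1 from −0.095 to 0.13, RRM2 from −0.34 to 0.016, TK1 from −0.12 to 0.18 and POLA1 from −0.22 to 0.029. The cause was not tested.

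Genes called among all 19775 at 10 h against 0 h numbered 70 as reported, 127 with array weights, 110 with a block for the 3 low-median arrays, 108 with trended and robust variances, 30 without the 3 low-median arrays, 37 without 10 h replicate 1 and 35 without 10 h replicate 2. With 2 arrays at 10 h, the median standard error of the 52 genes was 0.203 log2 units against 0 h. All 52 genes exceeded the negative controls, as did 13068 of all 19775 genes.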
